A study of Mus musculus with 5 samples.

Results

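The genes described here are 30 genes of developing thymocytes and of the T lineage, measured in sorted endothelium of the thymus, the lining of its blood vessels. They were taken by symbol: every probe set whose platform annotation names 1 of the 30 genes was read on all 5 arrays. Of the 30 genes, 27 had such a probe set, 41 probe sets in all, of 12393 genes and 22690 probe sets on the array. Lck, Tcf7 and Themis had none under the annotation used here and are not analysed here. Of the 5 arrays, 2 came from female C57BL/6J mice aged 6 to 8 weeks, taken 4 days after a sublethal total body irradiation of 550 cGy from a cesium source with no hematopoietic rescue. The other 3 arrays came from untreated females of the same strain and age (day 0). Cells of several mice were pooled for each array, so the spread between arrays is one between pools and may be partly technical. Both groups went through magnetic depletion of CD45-positive blood cells and a sort for VE-cadherin-positive cells lacking CD45 and EpCAM, although the cell type label of the day 4 samples reads thymic stromal cells rather than endothelial cells.

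T cells are made in the thymus from precursors that arrive through its vessels. At the double-negative stage the cells lack CD4 and CD8, cut their receptor genes with the RAG enzymes and test a beta chain in the pre-T cell receptor. Cells that pass become double-positive, carry both co-receptors, recombine the alpha chain and make up most of the organ, and the survivors leave as CD4 or CD8 single-positive cells that keep the CD3 complex and its signalling proteins. Double-positive thymocytes are known for dying readily after irradiation. All these cells belong to the blood lineage, whose surface protein CD45 was the marker removed in the sort. Rag1, Rag2, Dntt and Ptcra are grouped below as the double-positive stage genes, although each of them is already on in double-negative cells. The comparison list of genes of all T cells holds Cd3d, Cd3e, Cd3g, Cd247, Cd2, Cd5, Cd6, Cd28, Zap70 and Lat, which stay on in mature T cells, and Bcl11b, a regulator that fixes T cell identity.

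The stage genes split into a pair with high values at day 0 and a pair with low values in both groups. Their promoters are shown because all 4 genes serve the assembly or first test of the antigen receptor. The stretches are the 250 bases before the start site from RefSeq on GRCm38.p6, read 5′ to 3′ on the gene's strand, with capitals on each E-box, the CANNTG motif bound by the E proteins of early lymphocytes. Rag1 lies on the minus strand (chr2:101649533-101649782) and its neighbour Rag2 on the plus strand (chr2:101624462-101624711). Dntt lies on the plus strand (chr19:41029025-41029274) and Ptcra on the minus strand (chr17:46763713-46763962).
Rag1: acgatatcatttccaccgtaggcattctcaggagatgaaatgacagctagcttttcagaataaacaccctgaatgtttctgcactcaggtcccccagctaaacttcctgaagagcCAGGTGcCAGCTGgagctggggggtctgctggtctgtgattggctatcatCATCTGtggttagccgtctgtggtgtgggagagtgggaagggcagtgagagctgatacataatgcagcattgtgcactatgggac
Dntt: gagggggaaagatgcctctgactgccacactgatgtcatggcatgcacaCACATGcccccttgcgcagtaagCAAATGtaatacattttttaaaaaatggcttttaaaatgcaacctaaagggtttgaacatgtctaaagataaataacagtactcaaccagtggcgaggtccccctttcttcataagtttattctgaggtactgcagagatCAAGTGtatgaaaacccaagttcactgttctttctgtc
Rag2: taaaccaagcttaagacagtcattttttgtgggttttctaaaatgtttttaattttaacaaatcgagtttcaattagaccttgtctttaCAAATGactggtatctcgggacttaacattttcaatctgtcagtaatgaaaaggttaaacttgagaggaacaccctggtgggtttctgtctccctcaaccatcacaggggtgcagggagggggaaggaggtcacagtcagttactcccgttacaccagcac
Ptcra: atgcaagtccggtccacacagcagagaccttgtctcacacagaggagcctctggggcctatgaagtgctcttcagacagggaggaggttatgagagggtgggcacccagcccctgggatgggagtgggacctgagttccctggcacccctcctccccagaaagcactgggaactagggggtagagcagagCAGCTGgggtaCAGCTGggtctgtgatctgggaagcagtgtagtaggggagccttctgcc
The 250 bases held 3 E-boxes for Rag1, 3 for Dntt, 1 for Rag2 and 2 for Ptcra. Of the 30 genes, 21 had a promoter entry, and 15 of these held an E-box before their first listed start, against 66.2% of all 32851 promoter windows of that length. The RUNX motif TGTGGT, searched on both strands, was found before the first start of 2 of the 21, against 14.0% of all windows. It occurred 2 times before Rag1, where 1 copy overlaps an E-box, and 0 times before Dntt, Rag2 and Ptcra. The TCF/LEF motif CTTTGA was found before 3 of the 21 first starts, against 13.8% of all windows. These are matches of letters only, and the array reads no binding.

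Values are GCRMA expression on a log2 scale, where each array's median over all probe sets lay between 5.26 and 5.30 and the lowest value was 1.57. The scale carries no detection call, so a log2 value of 4 on at least 2 arrays was the filter for testing. Groups were compared with limma, and a gene was called where its Benjamini-Hochberg adjusted p over all 8940 genes tested was under 0.05. Changes are day 4 minus day 0, with standard errors (SE) from that fit. Endothelial markers were high in both groups: all 12 endothelial markers passed the filter and 0 passed the limma test (1 at an unadjusted p under 0.05), with a list mean of 9.96 and 10.22 at day 4, against 10.05, 10.11 and 10.26 at day 0. None of the sort's own markers passed: changes were -0.18 for Cdh5 (VE-cadherin), 0.14 for the endothelial gene Pecam1 and -0.48 for Epcam, with limma adjusted p of 0.307, 0.610 and 0.560. Across tested genes, arrays correlated with r of 0.984 within day 4, 0.990 to 0.992 within day 0 and 0.966 to 0.978 between the groups, which only describes the arrays since genes are not replicates.

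Of the 27 genes, 19 passed the filter, 10 fell at day 4 and 0 rose, while 1.35% of all tested genes fell and 1.50% rose. The 10 were Rag1, Dntt, Trbv1, Cd3d, Cd247, Cd8a, Cd8b1, Satb1, Bcl11b and Myb. An unadjusted p under 0.05 was found for 15 members, all lower, and for 1896 of all tested genes. Rag1, Cd8b1 and Cd28 passed the filter through day 0 arrays alone, so for these a difference was built into the filter. Over all 27 genes, tested or not, 25 changes lay below 0 and 2 above, with a median of -0.95, against -0.016 over all 12393 genes. On 18 of the 27 both day 4 arrays lay below all day 0 arrays and on 0 above, against 20.4% and 16.2% of all genes. In these bulk pools, fewer cells of a type and less RNA per cell cannot be told apart. The number of calls depended on the arrays used. Lower members numbered 1 without day 0 replicate 3, where 15 of all 8852 genes tested fell. With array weights they numbered 5, where 37 of all 8940 fell. Leaving out a day 4 array leaves 1 in that group, so only sizes are given. The 10 changes then ran from -3.97 (Rag1) to -1.08 (Cd247) without replicate 1. Without replicate 2 they ran from -4.05 (Rag1) to -0.97 (Cd247). The directions of the 10 genes held in each of these settings.

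**Figure D1:**
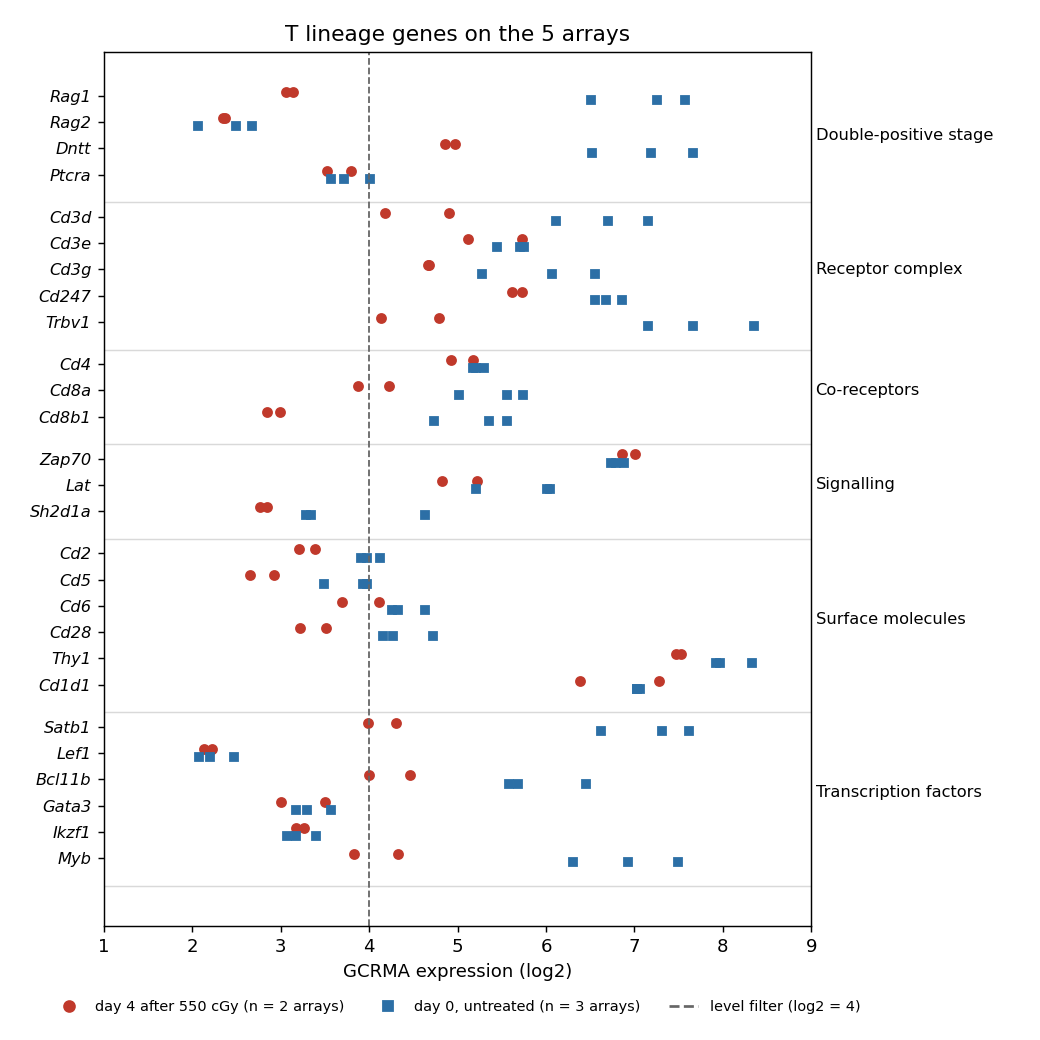
GCRMA expression (log2, horizontal axis) of the 27 genes on each array, grouped by role, with day 4 arrays as red circles, day 0 arrays as blue squares and the level filter as a dashed line. On Rag1, Dntt, Trbv1, Cd3d, Satb1 and Myb both day 4 arrays lie below 5 and all day 0 arrays above 6, while Rag2 and Lef1 stay at the bottom of the scale in both groups.

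Among the stage genes, Rag1, which encodes the catalytic subunit of the recombinase that cuts antigen receptor genes, had 3.06 and 3.14 on the day 4 arrays, against 7.58, 6.51 and 7.25 on the day 0 arrays. The day 4 values stood at percentiles 21.1 and 21.8 of all probe sets of their arrays, and the day 0 values at percentile 65.7 or higher. Its level fell by 4.01 ± 0.29 (SE) on the log2 scale (limma adjusted p = 0.00566). Because the day 4 level lies under the filter, the size of that change rests on background values.

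Dntt encodes terminal deoxynucleotidyl transferase, which adds random bases at receptor gene joints. It had 4.97 and 4.86 at day 4, against 7.67, 6.52 and 7.19 at day 0, and its change was -2.21 ± 0.31 (limma adjusted p = 0.0249). The groups did not overlap, and the day 4 values remained above the filter. Rag2, the partner without which RAG1 does not cut, had 2.35 and 2.37 at day 4, against 2.49, 2.06 and 2.67 at day 0. Ptcra, the invariant chain of the pre-T cell receptor, had 3.52 and 3.80, against 4.01, 3.71 and 3.56. Neither Rag2 nor Ptcra passed the filter, and the groups overlapped for both, so their changes of -0.050 and -0.10 were not tested. The stage group thus held 2 genes that fell and 2 that were not tested.

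The receptor complex had 3 of 5 genes lower. Trbv1, a beta chain variable segment, had 4.79 and 4.14 at day 4, against 8.36, 7.16 and 7.66 at day 0, a change of -3.26 ± 0.36 (limma adjusted p = 0.0142). Its lowest day 0 array stood 2.37 above its highest day 4 array. Cd3d, the delta chain of CD3, had 4.91 and 4.18, against 7.16, 6.11 and 6.71, a change of -2.11 ± 0.34 (limma adjusted p = 0.0362). Cd247, the zeta chain that carries most of the receptor's signalling motifs, had 5.72 and 5.61, against 6.86, 6.56 and 6.68. It changed by -1.03 ± 0.12 (limma adjusted p = 0.0159), a smaller change than that of Cd3d with a tighter spread. Cd3g, the gamma chain, had 4.67 and 4.66, against 6.56, 5.28 and 6.07, and its change of -1.30 ± 0.34 did not pass (limma adjusted p = 0.104) although the groups did not overlap. Cd3e, the epsilon chain, had 5.12 and 5.73, against 5.70, 5.45 and 5.75, so the groups overlapped (-0.21 ± 0.20, limma adjusted p = 0.579). The genes of the 3 CD3 chains are neighbours on chromosome 9, and their changes ranged from -2.11 to -0.21.

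Of the co-receptors, both CD8 chains were lower and Cd4 did not pass. Cd8b1 had 2.85 and 2.99 at day 4, against 5.56, 4.73 and 5.35 at day 0, a change of -2.30 ± 0.24 (limma adjusted p = 0.0124) with both day 4 arrays under the filter. Cd8a had 4.22 and 3.87, against 5.74, 5.01 and 5.56, a change of -1.39 ± 0.23 (limma adjusted p = 0.0392). Each day 4 value of both CD8 genes lay below each day 0 value. Cd4, the co-receptor of helper T cells, had 4.93 and 5.17, against 5.18, 5.30 and 5.20. Its day 4 arrays lay just below the day 0 arrays, by -0.18 ± 0.11, which did not pass (limma adjusted p = 0.402).

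Among transcription factors, 3 fell and the other 3 with a probe set stayed under the filter in both groups. Satb1, which organizes chromatin in thymocytes, had 4.30 and 3.98 at day 4, against 7.62, 6.63 and 7.31 at day 0 (-3.04 ± 0.29, limma adjusted p = 0.0110). Myb, needed for early thymocyte growth and also used by other blood progenitors, had 4.33 and 3.83, against 7.50, 6.30 and 6.93 (-2.83 ± 0.34, limma adjusted p = 0.0186). Bcl11b had 4.46 and 4.00, against 5.68, 5.58 and 6.45 (-1.67 ± 0.29, limma adjusted p = 0.0424). On all 3 genes the day 4 arrays sat close to the filter, and the lowest day 0 value of the 3 genes was 5.58. Lef1, a relative of Tcf7, Gata3, which drives CD4 lineage choice, and Ikzf1, the lymphoid regulator Ikaros, had values of 2.08 to 3.56 over all arrays with overlapping groups.

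No signalling or surface gene was called. Zap70, the kinase that binds the phosphorylated receptor chains, had 6.86 and 7.01 at day 4, against 6.79, 6.73 and 6.89 at day 0, and was the only tested member with a change above 0 (0.14 ± 0.10, limma adjusted p = 0.477). Lat, the adaptor that ZAP70 phosphorylates, had 4.82 and 5.22, against 6.01, 5.21 and 6.04, overlapping by 1 day 0 array (-0.73 ± 0.28, limma adjusted p = 0.203). Sh2d1a, an adaptor of SLAM receptors, stayed under the filter on all arrays but day 0 replicate 1, where it had 4.64.

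Of the surface genes, Cd28, the co-stimulatory receptor, had 3.52 and 3.22 at day 4, against 4.72, 4.16 and 4.26 at day 0. Its change of -1.02 ± 0.19 narrowly missed the threshold (limma adjusted p = 0.0529). Cd6, an adhesion receptor, changed by -0.50 ± 0.17 (limma adjusted p = 0.174). Cd2, an adhesion molecule, and Cd5, which dampens receptor signals, were too low to test, at 2.65 to 3.39 on the day 4 arrays and 3.49 to 4.12 on the day 0 arrays, without overlap for either. Thy1, abundant on mouse thymocytes and present on other cell types, had 7.47 and 7.53, against 8.34, 7.97 and 7.92, and kept a high level in both groups (-0.57 ± 0.15, limma adjusted p = 0.0970). Cd1d1, which presents lipids to NKT cells and is made by many cell types, had 7.28 and 6.39, against 7.03, 7.06 and 7.02, with the day 4 arrays on both sides of day 0 (-0.20 ± 0.24, limma adjusted p = 0.661).

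**Figure D2:**
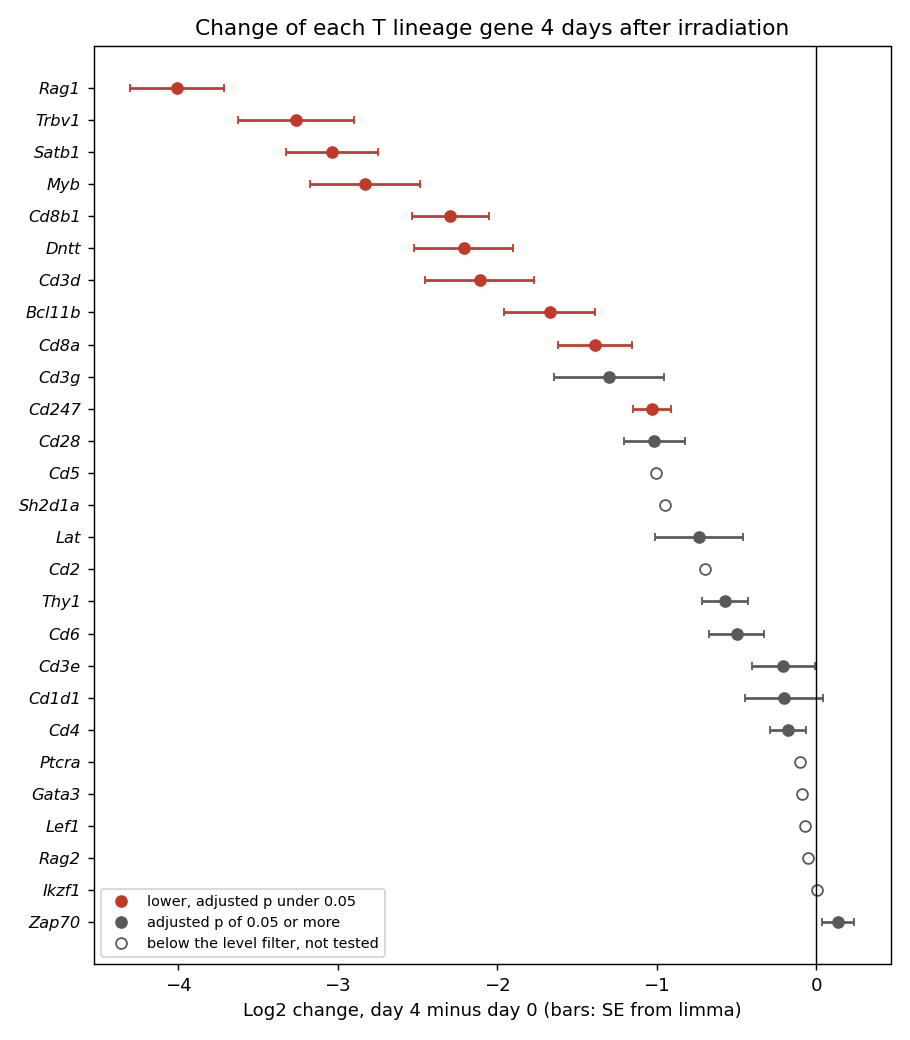
Log2 change (day 4 minus day 0) of the 27 genes, ordered from the largest fall, with bars for the SE of the limma fit, red for the 10 genes called lower, grey for those not called and open circles for the 8 not tested. Rag1 leads at -4.01, and Zap70 lies on the other side of 0 at 0.14.

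The size of the change varied with the day 0 level, which itself enters the change, so part of this relation may be built in. Of the 10 genes with a day 0 mean above 6, 7 fell, against 1.35% of tested genes at all levels. The share called among all genes at that level was not counted. The others of the 10 were Zap70, Thy1 and Cd1d1. The median change of the 10 was -2.16, against -0.045 over the 5925 genes at that level. Of the 10 genes with a day 0 mean from 4 to 6, 3 fell, at a median change of -0.88, against 0.0083 over 2844 genes. The 7 genes with a day 0 mean up to 4 were not tested and had a median of -0.093, against 0.0027 over 3624 genes. Rag2 and Lef1, near the bottom of the scale, have little room to fall, so their small changes do not show that their RNA was stable. Ptcra, at a day 0 mean of 3.76, changed by -0.10 with overlapping groups. At similar day 0 means, Cd5 (3.80) and Sh2d1a (3.76) changed by -1.01 and -0.95. Without day 0 replicate 1, where Sh2d1a was highest, the changes were 0.023 for Ptcra, -0.94 for Cd5 and -0.51 for Sh2d1a. None of these changes was tested.

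**Figure D3:**
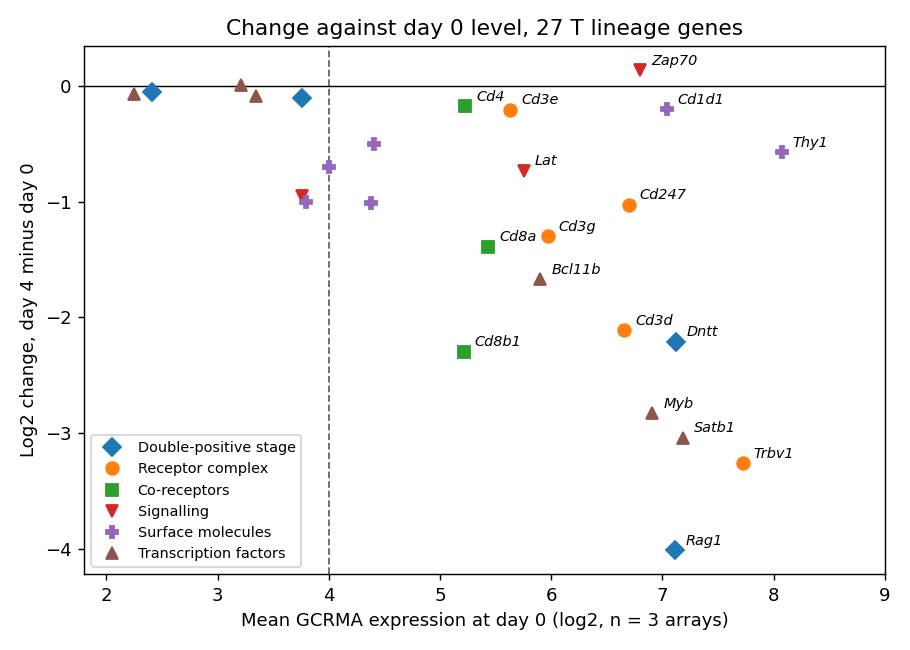
Log2 change (day 4 minus day 0, vertical axis) against the day 0 mean (log2, horizontal axis) for the 27 genes, with a symbol for each role and a dashed line at the level filter. The day 0 mean enters both axes. Falls beyond -2 occur only among genes with day 0 means above 5, and at similar levels Rag1 (-4.01) and Zap70 (0.14) lie far apart.

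Set side by side, the 4 stage genes averaged 3.48 and 3.54 on the day 4 arrays, against 5.44, 4.70 and 5.17 on the day 0 arrays. The 11 genes of all T cells averaged 4.51 and 4.55 at day 4, against 5.65, 5.16 and 5.55 at day 0. Both lists lay lower on each day 4 array. The median change was -1.16 for the stage genes, midway between the called and the untested pair, and -1.01 for the genes of all T cells, where 3 of 9 tested genes fell. The stage mean minus the all T cell mean was -1.04 and -1.01 on the irradiated pools, against -0.21, -0.46 and -0.38 on the untreated ones, a difference of -0.67 with no overlap. No p is given for it, because the genes were picked with results known, and 2 arrays against 3 cannot go below p = 0.10 in an exact two-sided permutation test. This difference rests on Rag1 and Dntt, with Zap70 and Cd3e on the other side, and it moved to -2.10 where only genes passing a filter at 6 were kept. The count of all T cell genes called lower was 0 without day 4 replicate 1 (5 at an unadjusted p under 0.05) or without day 0 replicate 3 (6), 1 without day 4 replicate 2 or day 0 replicate 1, and 1 with array weights. It was 5 with median centring, with no level filter or with the replicate number as a block.

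Other probe sets of the same genes gave the same direction in most cases. Of 41 probe sets, 38 had a change below 0, 25 passed the filter, 10 were called lower and 0 higher when each of 15065 probe sets was tested, against 0.677% lower and 0.717% higher of all probe sets. The 10 covered 8 genes. Cd3d (adjusted p = 0.0542), Cd8a (0.0583) and Bcl11b (0.0620) missed the limma threshold there, and Cd28 reached it through its second probe set, at 2.68 and 2.23 at day 4, against 4.59, 3.98 and 4.47 at day 0 (-1.89, limma adjusted p = 0.0253), which passed the filter through day 0 arrays alone. The probe sets that represent Dntt, Myb and Trbv1 carry the suffix that Affymetrix gives to sets sharing probes with other sequences. For Myb another probe set without that suffix was also called (-2.74, limma adjusted p = 0.0376), at 3.38 and 2.49 at day 4 and so past the filter through day 0 arrays alone. For Dntt another gave -1.62 (limma adjusted p = 0.0788). Trbv1 has no second probe set, and signal from other beta chain transcripts cannot be told apart from its own. Of the 3 Satb1 probe sets, -3.04 and -3.01 were called, while the third gave -0.88 with overlapping groups (limma adjusted p = 0.261). The 4 probe sets of Cd247 included 3 below the filter, with changes of -0.18 to -0.067. Zap70 also had a probe set below the filter, at 3.28 and 3.21 at day 4, against 3.14, 3.20 and 3.37 at day 0. The high Zap70 level above thus rests on 1 probe set.

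A wider list held 59 T cell genes that are not among the 30. Of these, 49 had a probe set, 29 passed the filter, 2 fell and 1 rose. The median change of the 49 was -0.15, against -0.016 over all genes. Some had high means at day 4 and day 0, such as Klf2 (11.98 and 12.34), Id3 (11.42 and 11.72), Ets1 (10.69 and 10.91) and S1pr1 (9.45 and 9.44). Signal from cells other than T cells was not separated, so the few calls do not show that T cell RNA was unchanged. Those called were all migration genes. Ccr9, the receptor that draws precursors and thymocytes to CCL25, had 3.31 and 2.56 at day 4, against 6.13, 5.36 and 6.17 at day 0 (-2.95, limma adjusted p = 0.0127), on a probe set that shares probes with other sequences. Both day 4 values of Ccr9 lie under the filter, so it passed through day 0 arrays alone and the size of its change rests on background values. Ccr7, the receptor that guides thymocytes to the medulla, had 3.37 and 4.02, against 5.27, 4.86 and 4.91 (-1.31, limma adjusted p = 0.0403). Cxcr4, the CXCL12 receptor of thymocytes and of endothelium, had 7.54 and 7.06, against 6.28, 6.24 and 6.54, and rose (0.95, limma adjusted p = 0.0483). The 0 called among 8 tested signalling genes, 3 surface genes and 13 transcription factors had 1, 1 and 3 at an unadjusted limma p under 0.05. The lower count was 0 without day 4 replicate 1 (4 at an unadjusted p under 0.05) or day 0 replicate 3 (3), and 1 without either other day 0 array or with array weights. Cxcr4 kept its call without day 4 replicate 2 (limma adjusted p = 0.0432) but not without any other single array, with array weights (0.0826), with median centring (0.0507) or with no level filter (0.0505).

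Levels of other cells' markers moved as well, and their part in the falls above was not tested. Among 10 genes of blood cells in general, 1 of 9 tested was lower: Coro1a, an actin regulator abundant in lymphocytes, at 4.78 and 4.58 at day 4, against 6.98, 6.31 and 7.36 at day 0 (-2.20, limma adjusted p = 0.0228). At an unadjusted limma p under 0.05 there were 6. Besides Coro1a, Cd52 (-0.98, limma adjusted p = 0.117), Rac2 (-0.40, 0.228) and Arhgdib (-0.34, 0.161) were lower, with day 4 arrays below all day 0 arrays. Cd48 (1.49, limma adjusted p = 0.0877) and Cd53 (0.91, limma adjusted p = 0.125) were higher, with day 4 arrays above all day 0 arrays. Ptprc, which encodes CD45, was above the filter on every array, at 6.68 and 6.38, against 6.86, 6.08 and 6.63, and differed by 0.0049 (limma adjusted p = 0.992). The summed linear signal of the blood cell list was 994 to 1358 at day 4 and 1013 to 1517 at day 0. Of 11 myeloid markers, 4 of 10 tested rose, 2 of them (Cd163 and Vsig4) past the filter through day 4 arrays alone. All 10 tested were higher at an unadjusted limma p under 0.05, with day 4 arrays above all day 0 arrays. The summed signal of the myeloid list was 3618 to 4817 at day 4 and 887 to 2077 at day 0, with Itgam under the filter on all arrays. Of 9 cycling cell markers, 6 of 7 tested fell, 3 of them (Ccnb2, Ube2c and Birc5) past the filter through day 0 arrays alone, with sums of 133 to 150 and 346 to 515. The B cell list had 2 of 5 tested lower (Cd79b and Ms4a1), both past the filter through day 0 arrays alone, with sums of 377 to 401 and 388 to 511. At an unadjusted limma p under 0.05 there were 3, with Cd22 higher (0.49, limma adjusted p = 0.0733). The groups overlapped for Ebf1 and Blnk, and Cd79a and Pax5 were under the filter on all arrays. Of the NK cell list 0 of 4 tested passed (1 at an unadjusted limma p under 0.05), with sums of 119 to 136 and 145 to 155 and Ncr1 under the filter throughout. The epithelial list had 0 of 7 tested called (3 at an unadjusted limma p under 0.05), with sums of 543 to 1173 and 1040 to 1734. The 3 were Krt14 (-1.26, limma adjusted p = 0.0787), Aire (-1.18, 0.0573) and Cldn4 (-1.12, 0.0600). All 3 were lower, with day 4 arrays below all day 0 arrays, and the groups overlapped for the other 5 epithelial genes with a probe set. Foxn1 was under the filter throughout, but Krt8 had 9.58 and 8.34 at day 4, against 10.25, 9.41 and 9.63 at day 0. Epcam had 7.17 and 5.67, against 7.27, 6.59 and 6.83, although the sort was for cells lacking EpCAM. The summed signal of the 27 T lineage genes was 833 to 895 at day 4 and 1541 to 2473 at day 0. Linear sums weigh the highest genes most, such as Thy1 among the T lineage genes and Ebf1 in the B cell list. They do not measure how many cells of a type were present.

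**Figure D4:**
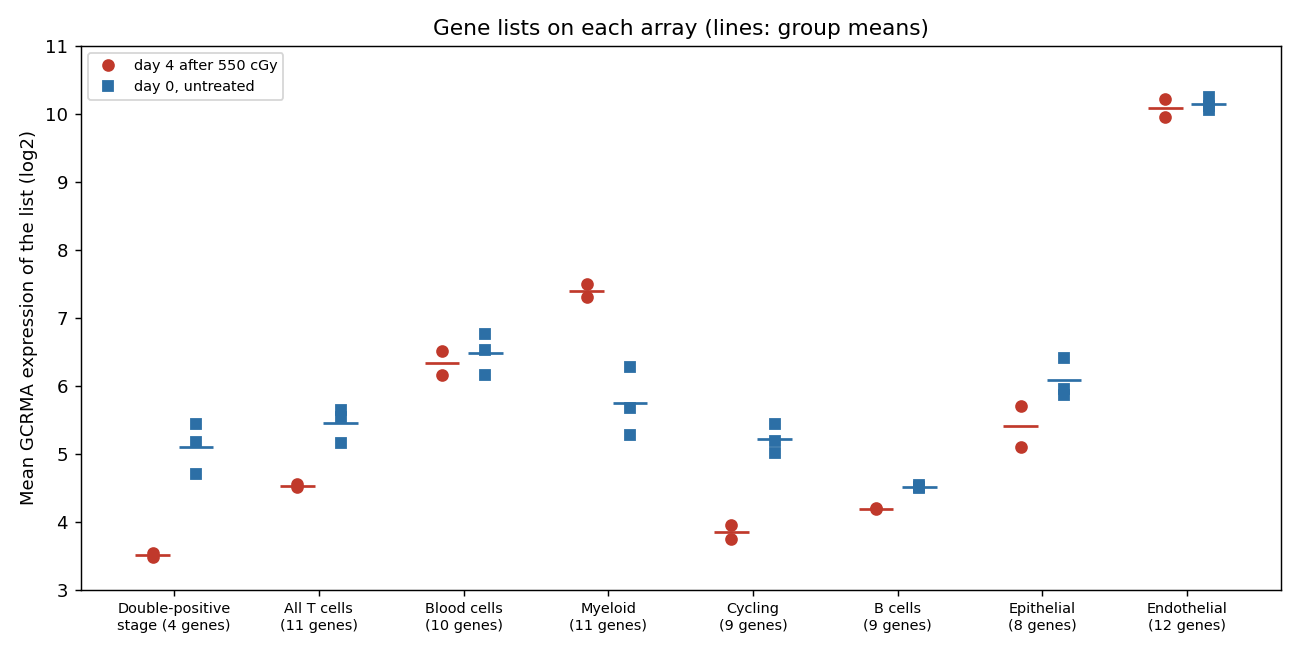
Mean GCRMA expression (log2) of gene lists on each array, with day 4 as red circles left of day 0 as blue squares and lines for the group means. The stage, all T cell, cycling, B cell and epithelial lists lie lower on both day 4 arrays. The myeloid list lies higher, and the blood cell and endothelial lists overlap.

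The day 0 pools also differed among themselves. On 20 of the 27 genes day 0 replicate 2 was the lowest of the day 0 arrays (74.1%, against 33.3% of all genes), and on 17 day 0 replicate 1 was the highest (63.0%, against 37.6%). Day 0 replicate 2 was also the lowest on 9 of 11 myeloid and 8 of 10 blood cell genes, and on 6 of 12 endothelial genes. For Rag1, Dntt, Cd3d, Trbv1, Satb1 and Myb the spread within day 0 was 0.99 to 1.20 between the highest and the lowest array. The gap from the lowest day 0 array to the highest day 4 array was 1.20 to 3.37 and wider than that spread for each. These genes are called ones with groups far apart, so a wide gap was partly built into their choice. On 9 of the 27 genes the groups overlapped, against 7858 of all 12393 genes. At day 4, replicate 1 was above replicate 2 on 14 of the 27 genes and below it on 13.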

How the data were processed

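Expression was read on 5 single-colour Affymetrix arrays, 2 of day 4 and 3 of day 0 pools, from 500 ng total RNA each, per the labels' protocols. The deposited log2 values came from GCRMA, as the submitters' processing notes state. Which version was used, and if the 5 arrays were processed as 1 set, is not given in the sources. GCRMA gives arrays a common distribution, which hides shifts shared by most genes, and it spreads out low values. No batch is given in the labels. The number of arrays limits the precision.

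The table had 22690 probe sets: 64 controls, 20380 with 1 symbol, 691 with several and 1555 with none, by the platform annotation. Of the 20380, 20351 matched RefSeq by Entrez identifier and 0 symbols changed. A gene was represented by its probe set with the highest mean and tested if above 4 on at least 2 arrays. Limma 3.58.1 in R 4.3.3 compared all 5 arrays, two-sided, with no covariate, 3 residual and 3.29 prior degrees of freedom. In simulated data of this comparison on 8940 genes, 77.5% of 200 genes changed by 1 on the log2 scale and 97.0% of those changed by 2 were recovered, and 4.32% and 7.18% of calls fell on unchanged genes. Figures were drawn with matplotlib 3.10.9. All 27 measured genes are named, with called genes of the wider T cell list and markers of the sort; Ptprc is among these. The genes and lists were chosen with earlier results of these data known, so counts and medians are descriptions. Alternatives were quantile normalization, median centring, a filter at 6 or none, averaging a gene's probe sets, an intensity trend with robust fitting, the replicate number as a block, array weights, and leaving out each array.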

Additional observations from a re-analysis of the deposited data

How the results depend on the processing

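All 10 genes called lower kept their direction under each of the 13 alternatives in which they were tested, and Rag1 kept its call in 12 of 13. Lower members numbered 5 with array weights and 0 to 10 when single arrays were left out, member probe sets 1 and 0 to 13, stage genes 1 and 0 to 2, and genes of all T cells 1 and 0 to 3. Genes of all T cells called lower numbered 5 with median centring, with no level filter and with the replicate block. Of the wider T cell list, the lower count was 1 with a filter at 6, 1 with array weights and 0 to 2 without single arrays, and the higher count 0 with median centring, no level filter or array weights and 0 to 1 without single arrays. With a filter at 6, which leaves Rag1 and Dntt of the stage genes, their median was -3.11 and the stage minus all T cell difference -2.10. With the mean of probe sets the all T cell median was -0.73 and that difference -0.54. Without single arrays the stage median lay between -1.37 and -0.97, the all T cell median between -1.10 and -0.85 and the difference between -0.73 and -0.60. Cd3e, not called, reversed to 0.096 without day 4 replicate 1 and was -0.51 without day 4 replicate 2. Cd1d1, not called, was -0.65 and 0.24 without those arrays. Over all genes, 121 fell and 134 rose, against 224 and 257 with the replicate block, 212 and 206 with trend and robust fitting, 37 and 49 with array weights, and 4 to 106 and 6 to 211 without single arrays. Same-numbered arrays had deviations correlated at r of 0.16 and 0.078; with 2 pairs the numbers do not establish a pairing. Causes were not tested. The untested genes with low values and overlapping groups (Rag2, Ptcra, Lef1, Gata3 and Ikzf1) have no reliable direction.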
